A study of Mus musculus with 10 samples.

Results

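The small leucine-rich proteoglycans are described here by 8 genes, Dcn, Bgn, Aspn, Lum, Fmod, Prelp, Omd and Ogn, taken by symbol from the 27919 genes of the expression table. Tumors of B16F10, a mouse melanoma cell line, carried either an Ly86 overexpression construct (called Ly86 tumors) or the vector alone (called vector tumors). All mice had received 4 rounds of anti-PD-1 plus anti-CTLA4 antibodies, so both groups share the treatment and neither is an untreated group. There were 4 Ly86 tumors in 5 libraries and 3 vector tumors in 5 libraries, because Ly86 tumor 1, vector tumor 1 and vector tumor 2 were each sequenced as 2 pieces. The promoter of the construct, the number of clones and the age, sex and strain of the mice are not stated in the labels used here.

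These proteoglycans are secreted proteins built around leucine-rich repeats, and most of them carry chondroitin, dermatan or keratan sulfate chains. Fibroblasts of the skin and other connective tissues lay them down, and they bind collagen fibrils and set how thick and how regularly spaced the fibrils become. Decorin and biglycan also bind TGF-beta, and in soluble form they can signal through Toll-like receptors. By sequence they fall into classes: Dcn (decorin), Bgn (biglycan) and Aspn (asporin) in class I, Lum (lumican), Fmod (fibromodulin), Prelp and Omd (osteomodulin) in class II, and Ogn (osteoglycin, or mimecan) in class III.

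Most of the genes lie next to a relative. In the RefSeq gene table of build GRCm38.p6, Dcn is next to Lum, and Lum is next to Kera. Prelp lies between Optc and Fmod. Aspn, Omd and Ogn follow each other after Ecm2, and all 3 lie within the span of Cenpp, a centromere protein gene. No label or note used here says whether strand was used in counting, so reads of Cenpp and of these 3 genes may not be fully separable. Cenpp itself ranged only from 7.07 to 15.7 TPM (transcripts per 1000000 of a library) over the 10 libraries. Bgn stands apart from the others on chromosome X, between Haus7 and Atp2b3.

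RefSeq promoter windows of build GRCm38.p6 were matched by symbol for 6 of the 8 genes. The windows of 4 genes are printed, over the 250 bases before the transcription start and on the plus strand of the genome. Bgn was the most abundant gene, Ogn was a gene whose tumor groups did not overlap, Aspn is in the same cluster as Ogn with overlapping groups, and Fmod was the only gene with a lower mean in the Ly86 tumors. The windows are at chrX:73483351-73483600 for Bgn, chr13:49607765-49608014 for Ogn, chr13:49544193-49544442 for Aspn and chr1:134037004-134037253 for Fmod. Capitals mark matches on either strand to the motifs searched.
Bgn: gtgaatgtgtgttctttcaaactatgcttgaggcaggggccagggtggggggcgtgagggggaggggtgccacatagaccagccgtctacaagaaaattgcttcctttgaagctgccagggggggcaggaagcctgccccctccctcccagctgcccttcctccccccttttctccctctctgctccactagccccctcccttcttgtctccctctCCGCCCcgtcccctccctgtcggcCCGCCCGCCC
Ogn: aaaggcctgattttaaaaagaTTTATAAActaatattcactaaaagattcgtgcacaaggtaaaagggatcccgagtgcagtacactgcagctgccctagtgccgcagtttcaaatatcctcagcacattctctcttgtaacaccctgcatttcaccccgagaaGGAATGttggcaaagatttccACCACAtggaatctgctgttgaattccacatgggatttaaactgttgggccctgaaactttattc
Aspn: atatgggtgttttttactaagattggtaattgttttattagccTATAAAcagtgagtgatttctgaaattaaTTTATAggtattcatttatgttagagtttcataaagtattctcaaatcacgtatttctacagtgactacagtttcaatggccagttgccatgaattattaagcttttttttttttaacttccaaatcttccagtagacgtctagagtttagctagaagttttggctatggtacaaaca
Fmod: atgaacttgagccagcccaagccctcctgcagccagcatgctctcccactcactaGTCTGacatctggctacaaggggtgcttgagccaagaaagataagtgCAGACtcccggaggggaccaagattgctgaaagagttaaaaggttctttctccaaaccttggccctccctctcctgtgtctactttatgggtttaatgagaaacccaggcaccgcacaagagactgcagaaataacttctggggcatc

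The motifs searched were the TATA box (TATAAA), found in 12.4% of all 32851 windows of this length, AP-1 (TGANTCA, 6.75%), the SP/KLF box (GGGCGG, 32.7%), RUNX (TGTGGT, 14.0%), TEAD (GGAATG, 12.6%) and a SMAD element (CAGAC, 42.2%). The Bgn window was rich in G and C (64.4%, against a median of 52.4% over all windows) and held 3 SP/KLF boxes, at -34, -10 and -6 from the start, of which the last pair overlap by 2 bases. The Ogn window (42.0% G and C) held 2 TATA boxes that overlap by 4 bases, at -229 and -227, a TEAD match at -86 and a RUNX match at -65. The Aspn window was the poorest in G and C of the 6, at 30.0%, and held 2 TATA boxes, at -207 and -178. The Fmod window (51.2% G and C) held 2 SMAD elements, at -195 and -148. The AP-1 motif was found in 0 of the 6 windows. Each match is a run of letters and not a measured binding site.

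The genes spanned a wide range of levels, with Bgn highest and Omd lowest. Averaged over the 7 tumors on the log2(TPM + 1) scale, the level was 7.45 for Bgn, 5.90 for Dcn, 3.63 for Lum, 3.44 for Prelp, 3.27 for Aspn, 2.82 for Ogn, 1.40 for Fmod and 0.52 for Omd. TPM is corrected for transcript length, so these levels can be set side by side. Pairs of genes were compared by an exact permutation that flips the sign of the difference in each of the 7 tumors, both groups together. Neighbours were set by the levels in the same tumors. Bgn was above Dcn in all 10 libraries, by 1.55 ± 0.89 log2 units within a tumor (SD, n = 7, two-sided exact sign-flip permutation p = 0.0156, the smallest possible, and 0.0364 after Benjamini-Hochberg adjustment over the 7 neighbouring pairs). Dcn was above Lum by 2.28 ± 0.62, also in all 10 libraries and with the same p-values. From Lum to Prelp, Aspn and Ogn, neighbours differed by 0.19 ± 0.79, 0.17 ± 0.61 and 0.45 ± 0.74 log2 units, none beyond their spread over both groups together (adjusted exact sign-flip permutation p between 0.218 and 0.547). The pooled values hide orders that differed by group. Lum minus Prelp was 0.76 ± 0.35 in Ly86 and -0.58 ± 0.36 in vector tumors (SD). Prelp minus Aspn was 0.00 ± 0.79 and 0.41 ± 0.15, and Ogn minus Aspn 0.08 ± 0.46 and -1.15 ± 0.21, in the same order. The ends of that run did differ: Lum was above Ogn in all 7 tumors and all 10 libraries, by 0.81 ± 0.37 (exact sign-flip permutation p = 0.0156, or 0.0199 adjusted over all 28 pairs of genes). Ogn exceeded Fmod in 6 of 7 tumors, by 1.42 ± 1.36 (adjusted exact sign-flip permutation p = 0.0546 over the neighbours and 0.038 over the 28 pairs), and Fmod exceeded Omd in all 7, by 0.88 ± 0.58 (adjusted exact sign-flip permutation p = 0.0364). By group, Fmod minus Ogn was -2.41 ± 0.77 in the Ly86 tumors and only -0.09 ± 0.25 in the vector tumors (SD).

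**Figure D1:**
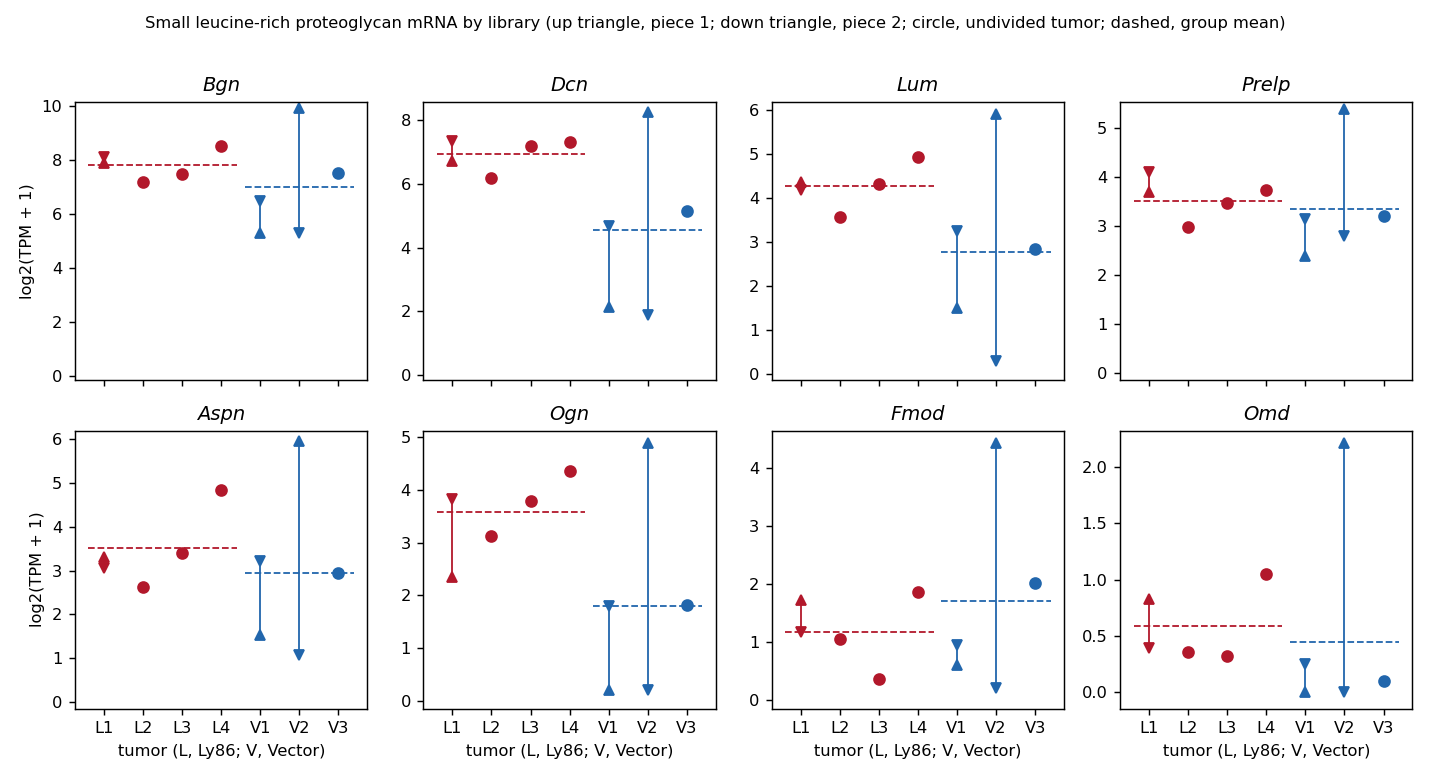
Level of each of the 8 genes in every library, on a log2(TPM + 1) axis, with Ly86 tumors and vector tumors side by side; triangles are pieces of a divided tumor (up for piece 1, down for piece 2), circles are undivided tumors and dashed lines are the means over tumors. In every panel the highest point is piece 1 of vector tumor 2, and the vector points spread more widely than the Ly86 points.

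Decorin showed the largest difference between the groups. Dcn, which binds collagen fibrils and several growth factors, stood at 104 and 161.5 TPM in the pieces of Ly86 tumor 1 and at 70.9, 144.5 and 158 TPM in Ly86 tumors 2, 3 and 4. In the vector libraries it stood at 3.43 and 24.6 TPM in the pieces of tumor 1, 303 and 2.72 TPM in the pieces of tumor 2, and 34.1 TPM in tumor 3. Every Ly86 library was above 4 of the 5 vector libraries, and the exception was piece 1 of vector tumor 2, which was above all Ly86 libraries. With pieces averaged, the 4 Ly86 tumors had a mean Dcn of 6.92 ± 0.52 (SD) and the 3 vector tumors 4.54 ± 0.98 on the log2(TPM + 1) scale. The difference of 2.39 (SE 0.45) had an unadjusted p of 0.00071 in limma and an adjusted p of 0.409 over the 14556 genes tested, so it did not pass the threshold of 0.05. In bulk tumor RNA, fewer cells of a type and less RNA per cell cannot be told apart, here and in all comparisons that follow.

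Osteoglycin and lumican had the next largest differences, and neither passed the threshold. Ogn, which takes part in collagen fibril formation, stood at 4.11 and 13.2 TPM in the pieces of Ly86 tumor 1 and at 7.73, 12.8 and 19.4 TPM in the others, against 0.16 and 2.49, 28.8 and 0.16, and 2.51 TPM in vector tumors 1, 2 and 3. Its tumor means were 3.59 ± 0.60 (SD, n = 4) and 1.79 ± 0.77 (SD, n = 3), a difference of 1.80 (SE 0.43, limma adjusted p = 0.437). Lum, a keratan sulfate proteoglycan that spaces collagen fibrils, stood at 19.5 and 17.2 TPM in the pieces of Ly86 tumor 1 and at 10.8, 19.0 and 29.4 TPM in the others. The vector values were 1.80 and 8.55, 59.1 and 0.21, and 6.20 TPM. Its tumor means were 4.27 ± 0.56 (SD, n = 4) and 2.77 ± 0.37 (SD, n = 3), a difference of 1.5 (SE 0.32, limma adjusted p = 0.437). For both genes every Ly86 library was above the other 4 vector libraries and below piece 1 of vector tumor 2.

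Biglycan, the most abundant of the genes and the class I relative of decorin, overlapped between the groups. Bgn stood at 236 and 276 TPM in the pieces of Ly86 tumor 1 and at 145, 177.5 and 366 TPM in the others, against 37.9 and 87.3, 958.5 and 37.7, and 183 TPM in vector tumors 1, 2 and 3. Vector tumor 3 lay within the Ly86 range and piece 1 of vector tumor 2 far above it. The tumor means were 7.80 ± 0.59 (SD, n = 4) and 6.995 ± 0.97 (SD, n = 3), a difference of 0.80 (SE 0.47, limma adjusted p = 0.563).

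Fibromodulin, a keratan sulfate proteoglycan that guides collagen cross-linking, was the only gene with a lower mean in the Ly86 tumors. Fmod stood at 2.31 and 1.26 TPM in the pieces of Ly86 tumor 1 and at 1.06, 0.28 and 2.62 TPM in the others, against 0.51 and 0.92, 20.5 and 0.16, and 3.02 TPM in vector tumors 1, 2 and 3. The groups overlapped, and the difference of -0.52 (SE 0.47, limma adjusted p = 0.719) turned to 0.18 without piece 1 of vector tumor 2. Prelp, which anchors basement membranes to the underlying tissue, ranged from 6.84 to 15.9 TPM in the Ly86 libraries and from 4.22 to 40.5 TPM in the vector libraries, a difference of 0.16 (SE 0.34, limma adjusted p = 0.906). Of the 7 genes tested it varied least over the libraries.

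Aspn, which binds collagen and TGF-beta and lacks glycosaminoglycan chains, ranged from 5.14 to 27.6 TPM in the Ly86 libraries, where tumor 4 was highest. The vector range was 1.10 to 60.8 TPM, and the difference of 0.57 (SE 0.51, limma adjusted p = 0.715) was within the spread. Omd, known from bone, was near the bottom of the scale, at 0.25 to 1.07 TPM in the Ly86 libraries and 0.00 to 3.65 TPM in the vector libraries. It was listed at 0 in piece 1 of vector tumor 1 and in piece 2 of vector tumor 2. Its mean of 0.59 TPM over tumors was below the filter of 1 TPM, so it was not tested in limma, and its difference of 0.14 had an exact permutation p of 0.657.

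Of the 8 genes, 7 had a higher mean in the Ly86 tumors and 1 a lower mean, with a median difference of 0.68, against -0.037 over all genes tested, of which 43.8% were higher. None of the 7 genes tested was called at a limma adjusted p under 0.05, nor was any of the 14556 genes (0%), while 1565 had an unadjusted p under 0.05. Dcn, Lum and Ogn had an unadjusted p under 0.05 with a higher mean in Ly86, as did 5.78% of all genes tested. In the same 3 genes no Ly86 tumor was as low as the highest vector tumor, which held for 4.71% of all genes tested. The exact permutation p, whose smallest possible value over the 35 assignments of the 7 tumors is 0.0286, was 0.0286 for Dcn and Ogn and 0.0571 for Lum. When TPM rather than log2 values of the pieces were averaged, or only first pieces were used, the Ly86 and vector tumors overlapped for all 8 genes. With limma array weights Dcn, Lum and Ogn were called (limma adjusted p = 0.0229, 0.0217 and 0.0217), among 1832 of the 14556 genes called in that fit. The weight there was 22.8 for vector tumor 3 and at most 0.946 for every other tumor.

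**Figure D2:**
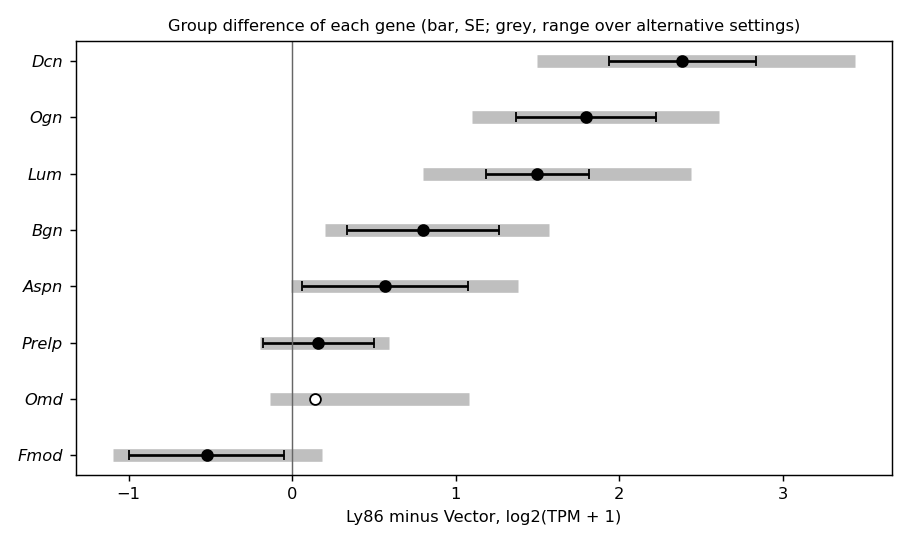
Difference between Ly86 and vector tumors for each gene, in log2(TPM + 1) units (points, with bars of 1 limma standard error); grey spans give the range over the alternative settings and the open circle is Omd, which has no standard error. Dcn, Ogn and Lum lie farthest to the right, the grey spans of these 3 and of Bgn stay above 0, and the spans of Fmod, Prelp, Aspn and Omd cross 0.

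The pieces of vector tumor 2 differed more than the groups did. Piece 1 held the highest level of all 8 genes among the 10 libraries, and for each gene the lowest level was in piece 2 of the same tumor or in piece 1 of vector tumor 1. Piece 1 exceeded piece 2 by 282-fold for Lum, 180-fold for Ogn, 128-fold for Fmod, 111-fold for Dcn, 55.2-fold for Aspn, 25.4-fold for Bgn and 6.85-fold for Prelp in TPM. Summed over the 8 genes, the level was 1475 TPM in piece 1 and 48.0 TPM in piece 2, against 247 to 617 TPM in the 5 Ly86 libraries. The pieces of vector tumor 1 held 49.9 and 140 TPM, and vector tumor 3 held 243.5 TPM. In Ly86 tumor 1 the pieces were closer, at 387 and 493 TPM, and Ogn differed most between them, by 1.47 log2 units.

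Many other markers, though not all, moved with the pieces. Between piece 1 and piece 2 of vector tumor 2, the summed level of 12 pan-fibroblast genes that are not proteoglycans went from 5194 to 366 TPM. In the same order, 12 macrophage markers went from 3393 to 227 TPM, 9 endothelial markers from 411 to 104 TPM, 8 adipocyte markers from 788.5 to 13.0 TPM and 8 keratinocyte markers from 780 to 0.78 TPM. The 10 melanocyte markers went the other way, from 10170 to 19660 TPM, and piece 1 had the lowest melanocyte sum of all libraries. Schwann cell markers hardly changed in sum, at 279.6 TPM in piece 1 and 280.4 TPM in piece 2. The part of these differences in cell makeup in the proteoglycan values was not tested. Without piece 1 of vector tumor 2, the difference was 3.44 for Dcn, 2.44 for Lum, 2.61 for Ogn and 1.57 for Bgn, with limma adjusted p of 0.092, 0.0966, 0.0875 and 0.158.

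Between the groups, the same marker lists gave the following ranges. The fibroblast genes summed to between 1262 and 3103 TPM in Ly86 libraries and between 366 and 5194 TPM in vector libraries, with 12 of 12 higher in the Ly86 mean, a median difference of 0.87, and none of them at 0 in any library. Macrophage markers summed to between 1117 and 2120 TPM against 204.5 to 3393 TPM, with 12 of 12 higher and a median difference of 1.24. Melanocyte markers, with 5 of 10 higher, summed to between 14190 and 20640 TPM against 10170 to 19660 TPM, and all 10 were present in every library, as the label of melanoma has it. Markers of cartilage, bone and tendon, tissues in which several of the proteoglycans are abundant, stayed at 8.21 to 22.5 TPM in sum, and Sp7 in all Ly86 libraries and Ibsp in all vector libraries were listed at 0. Ly86 itself stood at 49.2 to 81.9 TPM in the Ly86 libraries and at 6.24 to 80.9 TPM in the vector libraries, where piece 1 of tumor 2 was again highest. The part of fibroblast or macrophage content in the group differences was not tested.

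The balance between decorin and biglycan separated the groups in every library. Dcn TPM was 44.1% and 58.5% of Bgn TPM in the pieces of Ly86 tumor 1 and 49.0%, 81.4% and 43.3% in Ly86 tumors 2, 3 and 4. In the vector libraries it was 9.04% and 28.1%, 31.6% and 7.21%, and 18.7%. No vector library reached the lowest Ly86 library. Piece 1 of vector tumor 2, highest for both genes, had the highest vector ratio, and piece 2 of the same tumor had the lowest. On the log2 scale, Dcn minus Bgn averaged -0.87 ± 0.40 (SD) over the 4 Ly86 tumors and -2.46 ± 0.07 over the 3 vector tumors, a difference of 1.59 with an exact permutation p of 0.0286. The small vector SD holds only for tumor means, because the pieces of vector tumors 1 and 2 lay far apart in this ratio. The pair of Dcn and Bgn was singled out after its values were seen. Among all 28 pairs of the 8 genes, 15 differences of log2(TPM + 1) did not overlap between the tumor groups, and none passed 0.05 after adjustment (smallest adjusted exact permutation p = 0.0727). Of the 15, 13 set Dcn, Lum or Ogn against a gene other than these, so the pairs are not independent. The share among pairs of other genes was not computed. Between libraries 8 of the 28 differences did not overlap, but as ratios of TPM only 5 of the 8 did not: Dcn to Lum, Lum to Fmod and Bgn to Fmod overlapped on that scale. The groups did not overlap in Dcn minus Bgn under any of the 17 alternative settings, where the difference ranged from 1.19 to 1.87. Settings that only left out tumors or pieces could not have brought overlap, because the libraries already did not overlap. Those settings therefore add no support.

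**Figure D3:**
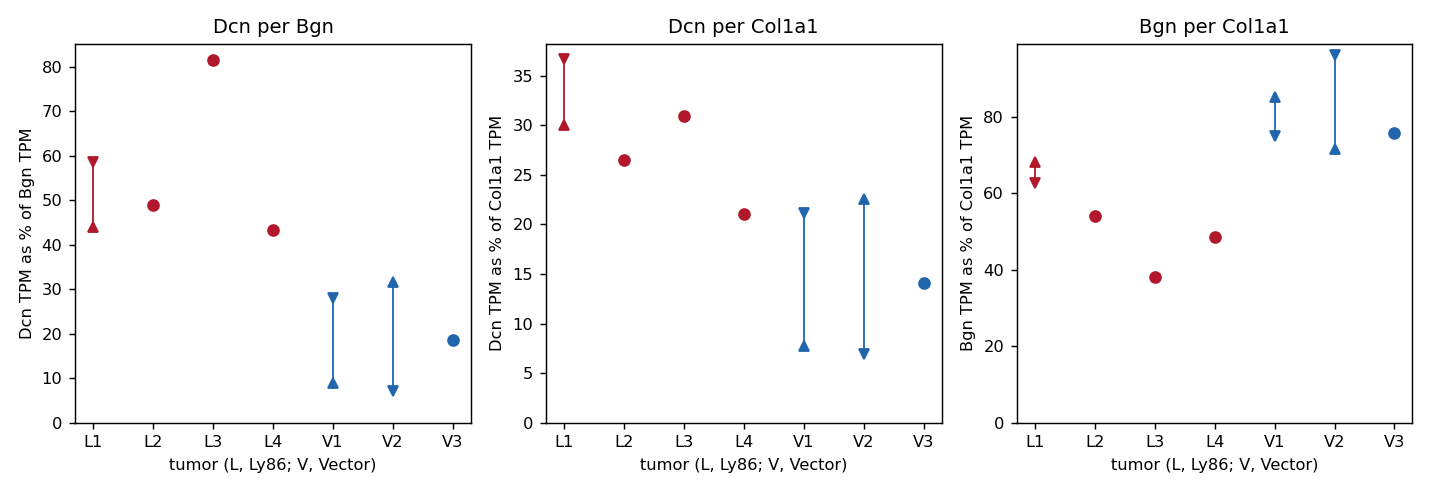
TPM of one gene as a percentage of another in every library, with Ly86 and vector tumors side by side and the same symbols as in the plot of levels by library. The Dcn to Bgn ratio is at least 43.3% in every Ly86 library and at most 31.6% in every vector library.

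Type I collagen gave a further comparison. Bgn TPM was between 38.0% and 68.1% of Col1a1 TPM in the Ly86 libraries and between 71.5% and 96.1% in the vector libraries, without overlap (log2 difference -0.65, exact permutation p = 0.0571, chosen after its values were seen). Dcn was between 21% and 36.7% of Col1a1 in the Ly86 libraries and between 6.94% and 22.6% in the vector libraries, which overlapped. As shares of the summed TPM of the 8 genes, Bgn made up 55.9% ± 5.65 in Ly86 tumors and 72.0% ± 2.96 in vector tumors, and Dcn 30.7% ± 5.58 and 13.1% ± 0.90 (SD, n = 4 and n = 3, exact permutation p = 0.0286 for each). Prelp made up 2.64% against 5.97% and Fmod 0.339% against 0.981% (exact permutation p = 0.0286 for each), and Ogn 2.90% against 1.07% (exact permutation p = 0.0571). Between libraries the shares of Prelp, Fmod and Ogn overlapped. For Prelp they ran from 1.98% to 3.24% in Ly86 libraries and from 2.74% to 12.3% in vector libraries. The Dcn share ran from 5.67% to 20.5% over the vector libraries, a span that the SD over tumors does not show. The shares of Lum, Omd and Aspn differed within the spread (exact permutation p = 0.143, 0.229 and 0.4). None of the 8 shares passed 0.05 after adjustment over them (smallest adjusted p = 0.0572), and shares of 1 sum are not independent of each other.

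Set against the fibroblast genes of the same tumor, the proteoglycans spread in both directions. The mean log2(TPM + 1) of the 12 fibroblast genes came to 6.17 ± 0.46 (SD) over the 4 Ly86 tumors and 5.21 ± 0.63 over the 3 vector tumors. Relative to that mean, the difference between the groups was 1.43 for Dcn, 0.84 for Ogn and 0.54 for Lum, and -1.48 for Fmod, each at the design's lowest exact permutation p (0.0286), among 8 such comparisons. None of the 8 passed 0.05 after adjustment over them (smallest adjusted p = 0.0571). It was -0.16 for Bgn (exact permutation p = 0.543), -0.39 for Aspn (0.229), -0.80 for Prelp (0.0857) and -0.82 for Omd (0.0571). The separation of Dcn, Ogn and Lum depended on how the pieces were used. With TPM of the pieces averaged, the tumor groups overlapped for all 3, at 0.899 for Dcn (exact permutation p = 0.0857), 0.709 for Ogn (0.0571) and 0.20 for Lum (0.6). With first pieces only they overlapped again, at 1.17 (exact permutation p = 0.114), 0.602 (0.2) and 0.38 (0.286), and Lum also overlapped with second pieces and with quantile normalization. Fmod was lower without overlap in all 4 of these settings. With 0.1 in place of 1 added to TPM, the difference was 1.555 for Ogn, 0.881 for Lum, 0.025 for Omd and -1.61 for Fmod.

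The reference itself was uneven. Fbln1 ranged only from 85.9 to 115 TPM and Pcolce from 79.4 to 220 TPM over the 10 libraries. Without these 2 genes, a choice made after their values were seen, the relative difference was 1.28 for Dcn, 0.69 for Ogn, 0.39 for Lum and -1.63 for Fmod. The exact permutation p then was 0.0286 for Dcn and Fmod, 0.0571 for Ogn and 0.143 for Lum.

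**Figure D4:**
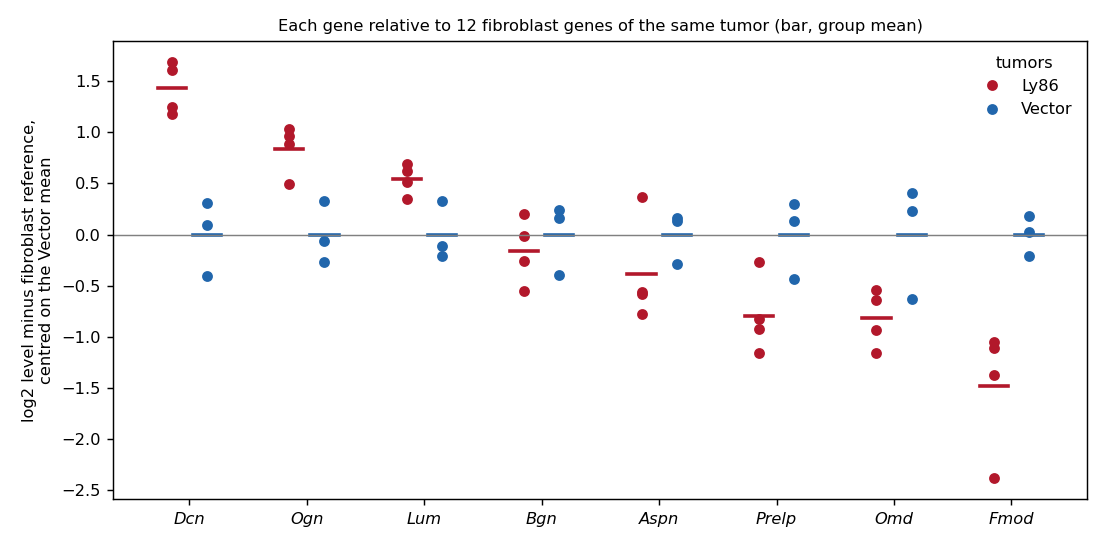
Level of each gene minus the mean of the 12 fibroblast genes of the same tumor, in log2(TPM + 1) units and centred on the vector mean of the gene, for the 4 Ly86 and 3 vector tumors (points; bars are group means). With log2 values of the pieces averaged, as drawn, Dcn, Ogn and Lum lie higher in every Ly86 tumor than in any vector tumor and Fmod lies lower, while Bgn, Aspn, Prelp and Omd overlap. With TPM averaged or with first pieces, Dcn, Ogn and Lum overlap too.

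Of 10 further genes of the family, 5 reached a mean of 1 TPM, 4 of them with a higher and 1 with a lower mean in Ly86 tumors, and 0 were called. Optc (opticin, known from the vitreous of the eye) differed by 0.37, Tsku (tsukushi) by 0.21, Ecm2 by 0.19, Podn (podocan) by 0.10 and Chadl by -0.22. Podn followed the main pattern across pieces, with 27.3 TPM in piece 1 and 0.04 TPM in piece 2 of vector tumor 2. Optc did not, and its lowest level, 1.42 TPM, was in that piece 1, although it is a chromosomal neighbour of Prelp. Kera (keratocan, known from the cornea), the neighbour of Lum, was listed at 0 in 9 of 10 libraries and at 0.09 TPM in the other. Epyc, Chad, Nyx and Podnl1 were also below the filter.

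The collagens that the proteoglycans bind were higher in the Ly86 mean in 11 of 11 genes tested, with a median difference of 0.94 and 0 called. Of these, 6 had an unadjusted limma p under 0.05, as did 5.78% of all genes tested with a higher Ly86 mean. In 4 every Ly86 tumor was above every vector tumor, against 4.71% of all genes tested. Overlap was read for the lists only with log2 values of the pieces averaged. Col3a1 differed by 1.98 (SE 0.52), Col1a2 by 1.47 and Col1a1 by 1.45, each with a limma adjusted p of 0.437. Enzymes that process and cross-link collagen were higher in 9 and lower in 3 of 12 genes, with a median of 0.50 and 0 called. Lox, the lysyl oxidase that starts collagen cross-links, differed by 1.68 (SE 0.55), Loxl1 by 1.25 and the procollagen protease enhancer Pcolce2 by 0.98. Proteases known to cleave members of the family were higher in 11 of 12 genes, with a median of 1.34 and 0 called. An unadjusted limma p under 0.05 with a higher mean was found for 6 of them, beside the 5.78% of all genes tested. Htra1 differed by 1.47 (SE 0.32), the collagenase Mmp13 by 1.44 and the gelatinase Mmp9 by 1.24.

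The enzymes that build the sugar chains were divided in direction. Of 23 genes of chondroitin and dermatan sulfate assembly, 12 were higher and 11 lower, with a median of 0.026 and 0 called. Chsy1, a chondroitin synthase, differed by -0.39 (SE 0.14) and Papss1, which makes the sulfate donor, by -0.24, and both were lower in every Ly86 tumor than in any vector tumor. The share of all genes tested that were lower without overlap was not computed, so this is no result particular to these enzymes. The sulfotransferase gene Chst11 differed by 0.72. Of 6 genes of keratan sulfate assembly, 3 were higher and 3 lower, with a median of 0.036. Their named genes were B4galt1 at 0.23, Fut8 at 0.10 and Chst1 at 0.07. These enzymes also serve other proteoglycans and other cells, and the chondroitin list summed to similar ranges in the Ly86 (422 to 504 TPM) and vector libraries (423 to 508 TPM).

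Receptors and ligands bound by the family were higher in 12 and lower in 7 of 19 genes, with a median of 0.084 and 0 called. Lrp1, an endocytic receptor that takes up decorin, differed by 1.00, Tlr2, a receptor for soluble biglycan, by 0.83, and Egfr, which decorin binds, by 0.70. Proteoglycans outside the family were higher in 9 and lower in 8 of 17 genes, with a median of 0.14 and 0 called. Srgn (serglycin, the proteoglycan of leukocyte granules) differed by 1.35, Sdc3 by 0.97 and the glypican Gpc3 by 0.66. Of fibroblast subtypes, 11 of 11 universal and adventitial markers were higher, with a median of 1.34 and 0 called. With log2 values of the pieces averaged, 9 of them did not overlap, against 4.71% of all genes tested. Clec3b differed by 3.14, Pi16 by 2.55 and Dpt, a collagen-binding dermal protein, by 2.30. Markers of myofibroblasts and pericytes were higher in 4 and lower in 7 of 11 genes, with a median of -0.18 that turned to 0.193 without piece 1 of vector tumor 2.

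Genes with the most similar profiles over the 10 libraries were found by the root-mean-square difference of log2(TPM + 1) after each gene was centred on its own mean. These are descriptions over libraries that include pieces of the same tumors. For Dcn they were Cpxm1 (0.33), Lox (0.43) and Col3a1 (0.44), beside a spread of 2.09 for Dcn itself. Lum was closest to Gas6 (0.33), Col1a2 (0.42) and Col1a1 (0.43). For Bgn the closest were Col5a2 (0.18), a chain of the type V collagen that starts fibrils, Slit3 (0.18) and Cpa3 (0.22). Ogn was closest to Mmp2 (0.26), Wfdc17 (0.30) and Efemp1 (0.31), Aspn to the type VI collagen chains Col6a1 (0.42) and Col6a2 (0.43) and to Tmem119 (0.43), and Fmod to Col8a1 (0.28), Gfra1 (0.29) and Pdgfrl (0.30). Prelp, with the smallest spread (0.79), was closest to Cavin3, Hdgfl3 and Mid1 (0.17 each).

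The mean profile of the 7 genes tested was closest to Col5a2 (0.16), the fibrillin gene Fbn1 (0.21) and Mfap2 (0.23), a component of the same microfibrils, and then to Ccdc80, Slit3, Nbl1, Col5a1, Gas6, Col6a1 and Col6a2 (0.26 to 0.30). Within the family, the closest pair was Bgn and Aspn (0.51), followed by Lum with Bgn and Lum with Ogn (0.56 each). The most distant pair was Dcn and Fmod (1.69). These distances also depend on level, because adding 1 to TPM shrinks the changes of low genes. Piece 1 of vector tumor 2 exceeded piece 2 by 111-fold for Dcn and 128-fold for Fmod in TPM. On the scale used for the distance, the same gaps were 6.35 and 4.21. Among chromosomal neighbours, Dcn and Lum stood at 0.70, Prelp and Fmod at 0.65 and Aspn and Ogn, which share a cluster, at 0.77.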

How the data were processed

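RNA was measured in 10 libraries of 7 B16F10 tumors. Per the labels' protocols, RNA was extracted with TRIzol and polyadenylated RNA was sequenced on a NovaSeq instrument. Tools named in the submitters' processing notes are STAR 2.7.10b and RSEM 1.3.3, with build mm39. Values in the deposited table are log2(TPM + 1). That scale was read from the values: undoing it gave multiples of 0.01 TPM (within 1e-04 hundredths) for 99.9% of values and totals of 994679 to 996446 per library. The planned tests had assumed TPM and needed no change. TPM keeps no depth, so no read depth or counting interval can be stated. Between 19304 and 21882 genes were above 0 per library, and no 2 libraries shared more than 2.36% of values.

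Log2 values of the pieces of a tumor were averaged. The labels do not say that each tumor came from a separate mouse, and p-values then cover only the spread among these tumors, which may be technical. Genes with a mean of at least 1 TPM over tumors (14556) were tested with limma 3.58.1 (lmFit, eBayes with trend) in R 4.3.3, adjusted by Benjamini-Hochberg, with 0.05 as threshold. Differences are Ly86 minus vector on the log2(TPM + 1) scale and understate changes of low genes. The fit was tested on simulated data. Ratios, shares and relative levels used two-sided exact permutation tests over the assignments of tumors to groups. The order of levels used a two-sided exact sign-flip permutation over all tumors.

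The 8 genes and 19 gene lists (237 genes, 1 absent from the table) were chosen with earlier results of these data known. The genes named are the 8, the 10 relatives, the 3 with the smallest unadjusted p of each other list described by name, and the nearest 3 by profile for each gene and 10 for the mean, without predicted genes. Other lists are given by counts: Schwann cell 5 of 8 higher (median 0.07), keratinocyte 0 of 8 (-0.60), skeletal muscle 0 of 7 (-1.06), adipocyte 5 of 7 (0.04), endothelial 4 of 9 (-0.06), and cartilage, bone and tendon 2 of 4 (0.15). Alternatives covered the pseudocount, filter, scaling, pieces, model and left-out tumors. The comparisons of Dcn with Bgn and Bgn with Col1a1 and the shortened fibroblast list were added after seeing the data. RefSeq tables are of GRCm38.p6, so no coordinate was joined to the mm39 values. Python 3.11.15 and matplotlib 3.10.9 were used.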

Additional observations from a re-analysis of the deposited data

How the results depend on the processing

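Dcn, Lum, Ogn and Bgn were higher in Ly86 tumors under all 23 alternatives run, with differences of 1.498 to 3.44 (limma adjusted p 0.0229 to 1), 0.80 to 2.44 (0.0217 to 1), 1.10 to 2.61 (0.0217 to 1) and 0.20 to 1.57 (0.158 to 1). The median over the 8 genes ranged from 0.13 to 1.48, the latter without piece 1 of vector tumor 2. Genes called by limma numbered 0 in the reported fit, 1 with first pieces, 6 with second pieces, 1 without piece 1 of vector tumor 2, 0 to 2 with 1 tumor left out, and 1832 with array weights. Array weights called 3 of the 8 genes (Dcn, Lum and Ogn) and gave vector tumor 3 a weight of 22.8, against 0.361 to 0.946 for the others. The direction turned for Fmod with second pieces (0.054) and without piece 1 of vector tumor 2 (0.18); for the difference of Prelp with TPM of pieces averaged (-0.023), with first pieces (-0.195) and with a tumor left out (-0.134 without vector tumor 1, range to 0.528); for Aspn with TPM averaged (-0.006); for the difference of Omd with first pieces (-0.134) and with a tumor left out (-0.033 to 0.472); and relative to the fibroblast genes for Bgn without piece 1 of vector tumor 2 (0.036) and for Omd with a pseudocount of 0.1 (0.025). Relative to the fibroblast genes, the difference ranged over 18 alternatives from 0.899 to 1.91 for Dcn, 0.20 to 0.902 for Lum, 0.602 to 1.555 for Ogn and -1.63 to -1.18 for Fmod. The cause was not tested. Medians of lists near 0 turned sign in some alternatives, up to 8 of 23 for chondroitin and dermatan sulfate assembly, 3 of 23 for myofibroblast and pericyte markers (-0.498 to 0.193) and 1 of 23 for keratinocyte markers (-1.76 to 0.379), while the medians of collagens, their processing enzymes, proteases, fibroblast, adventitial and macrophage genes stayed above 0 in all 23. The groups of 4 genes (Omd beside Dcn, Lum and Ogn) did not overlap with second pieces, without piece 1 of vector tumor 2 or without vector tumor 2. The share of all genes tested without overlap was not computed for these settings. In the same order, 3319, 3012 and 2587 of all genes tested had an unadjusted limma p under 0.05 there, against 1565 in the reported fit.

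With the tumor number as a replicate block (tumors 1 to 3), limma called 0 genes, 643 had an unadjusted p under 0.05 against 1565, Dcn differed by 2.25 (adjusted p = 0.904) and the difference of Omd was -0.016. Across genes, the deviations of tumors sharing a number had r of -0.17, -0.11 and -0.31, against -0.22 to 0.35 for tumors with unlike numbers. What the number stands for is not given in the labels, and a shared day or batch was not tested. Array weights and a random tumor block over all libraries have no value for Omd, which was below the filter, and were not run for levels relative to the fibroblast genes. Read depth is unknown, so whether the values near 0 of Omd, Ogn and Lum in vector pieces are limited by depth cannot be told.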
